A study of Arabidopsis thaliana with 4 samples.

Results

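FERONIA and THESEUS1 belong to the CrRLK1L family, named after the Catharanthus roseus kinase that defined it. These are receptor kinases of the plasma membrane, each with a malectin-like outer region facing the cell wall, a single membrane span and a kinase inside the cell. FERONIA binds RALF peptides, AtRALF1 among them, and restrains cell elongation when it does so. THESEUS1 slows growth when the wall is damaged, and other relatives keep pollen tubes and root hairs intact while they extend. The transcripts of 10 listed family genes, chosen as members of the family by name, were followed here. Of these, 8 had a probe set named for them alone: FER (AT3G51550), THE1 (AT5G54380), AT2G23200, AT5G24010, AT5G59700, AT2G39360, AT2G21480 and AT4G39110. HERK1 (AT3G46290), which acts with THE1 in cell elongation, and AT5G61350 (ERULUS), a root hair kinase, are not named in the probe table used and were not analysed here.

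The material was whole seedlings of Arabidopsis thaliana, 1 week old, grown on upright plates with 16 h of light at 24 °C after 48 h of cold. Control RNA was an equal mixture from wild-type plants and plants transformed with the empty pART27 vector. The 35S:AtRALF1 RNA was an equal mixture from transgenic lines I and II, in which the near-ubiquitous 35S promoter of a plant virus drives AtRALF1, so neither line can be read on its own. The probe table used does not name AtRALF1, so its raised level was not checked. Each group had 2 arrays, called repeats 1 and 2, and the labels do not say whether these were separate plantings, so every p-value reflects the spread among these 4 arrays alone, and that spread may be technical. The deposited values were linear signal intensities, already brought by the authors to a common trimmed mean of 125.0 in each array. The 40th percentile of an array lay between 28.5 and 34.6, and signals under it are called dim below, since no detection call was used. Leaf and root transcripts were abundant, with RCA (Rubisco activase) at 8572 to 9926 and PYK10, a root beta-glucosidase, at 4085 to 7079. Of the pollen markers, 3 of the 4 measured never exceeded 11.1, and the fourth, the tubulin gene TUA1, ranged from 157.9 to 427.1. Because whole seedlings were extracted, fewer cells of a type and less RNA per cell cannot be told apart.

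No member of the family passed the test between 35S:AtRALF1 and control. FER and THE1 were well above the dim range in every array, AT2G39360 lay above it at a lower signal, and AT5G59700, AT2G21480 and AT4G39110 were dim throughout. FER stood higher in 35S:AtRALF1 in both repeats, by 1.47 and 1.38 times, yet the repeats differed from one another by more than the groups did. THE1 moved up in repeat 1 and down in repeat 2. Over all 22746 probe sets, limma called 0% at an adjusted p under 0.05, and 0 of 8 members. At an unadjusted p under 0.05 there were 0 of 8 members, beside 2.01% of all probe sets higher and 2.29% lower.

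**Figure D1:**
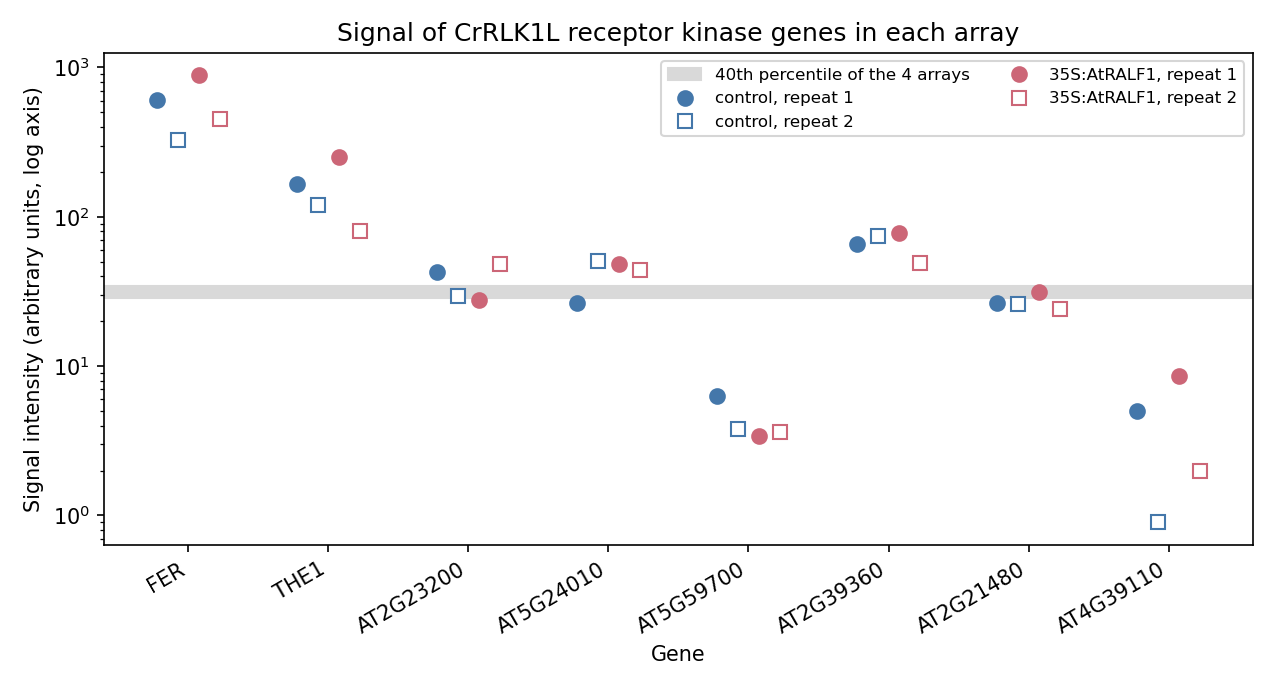
Signal intensity (log axis) of the 8 measured CrRLK1L genes in each of the 4 arrays; colours mark the groups, filled circles repeat 1 and open squares repeat 2, and the grey band spans the arrays' 40th percentiles (28.5 to 34.6). FER and THE1 lie above the band in all 4 arrays, whereas AT5G59700 and AT4G39110 lie far below it.

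FER, the receptor of AtRALF1, had signals of 603 and 326.1 in the control, against 884.8 and 451.5 in 35S:AtRALF1. The 35S:AtRALF1 array was the higher one within each repeat, but the groups overlapped, because the control array of repeat 1 exceeded the 35S:AtRALF1 array of repeat 2. The group means were 465 ± 196 and 668 ± 306 (SD, n = 2 each), a ratio of 1.44. On the log2(signal + 16) scale, used for all tests and understating changes of dim genes, the log2 fold change was 0.50 (standard error, SE, 0.46; adjusted p = 0.987 from limma). Its 95% interval ran from -0.72 to 1.71, that is from 0.607 to 3.28 times the control, so neither a rise of 3-fold nor a fall of 1.5-fold was outside it. Of all probe sets, 6.61% had a log2 fold change at least as high, and 15.9% had one at least as large in either direction. With 1 array left out the value ranged from 0.023, without 35S:AtRALF1 replicate 1, to 0.97, without 35S:AtRALF1 replicate 2. Leaving out control replicate 2 gave 0.068, and leaving out control replicate 1 gave 0.92. The fit had no term for the repeat, so its SE, interval and these left-out values also carry the difference between repeats. Within repeats 1 and 2 the log2 differences were 0.54 and 0.45. With the repeat as a block the value was 0.50 (unadjusted p = 0.0409, adjusted p = 0.681 from limma). The labels do not say that repeat numbers pair arrays.

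THE1, which senses wall integrity and is known as a receptor of the peptide RALF34, had signals of 166 and 120.2 in the control against 250.8 and 79.7 in 35S:AtRALF1. The 35S:AtRALF1 arrays gave both the highest and the lowest of the 4 signals, so the control values lay between them. In repeat 1 the 35S:AtRALF1 signal was 1.51 times the control and in repeat 2 it was 0.663 times. The group means, 143 ± 32.4 and 165 ± 121 (SD, n = 2 each), had a fitted log2 fold change of 0.021 (SE 0.55, adjusted p = 1 from limma). The interval was -1.42 to 1.46, the widest of the 8 members. With 1 array left out the value lay between -0.72 (without 35S:AtRALF1 replicate 1) and 0.76 (without 35S:AtRALF1 replicate 2). Leaving out control replicate 2 gave -0.19, and leaving out control replicate 1 gave 0.23.

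Of the members with no gene name in the tables used, AT2G39360 was the only one above the dim range in all 4 arrays. Its signals were 65.7 and 74.4 in the control against 78 and 48.7 in 35S:AtRALF1. The control values again fell between the 35S:AtRALF1 values. The log2 fold change was -0.14 (SE 0.31), with an interval of -0.95 to 0.67, and it was 0.13 without 35S:AtRALF1 replicate 2. AT2G23200 had signals of 42.8 and 29.7 in the control against 27.8 and 48 in 35S:AtRALF1, each group with 1 array above the dim range and 1 below. It was the only member lower in repeat 1 and higher in repeat 2 (-0.42 and 0.49 on the log2 scale), and its fitted value was 0.030 (SE 0.34). AT5G24010 had 26.3 and 50.8 in the control against 48.6 and 44.3 in 35S:AtRALF1. Only its first control array was dim, and without control replicate 1 the log2 fold change went from 0.23 (SE 0.34) to -0.10.

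The other 3 members were dim in all 4 arrays. AT2G21480 had 26.5 and 26 in the control against 31.3 and 24 in 35S:AtRALF1, with a log2 fold change of 0.042 (SE 0.26). AT4G39110 had 5 and 0.9 in the control against 8.6 and 2 in 35S:AtRALF1, with a log2 fold change of 0.16 (SE 0.21), or 0.63 with an offset of 1 in place of 16. AT5G59700 had 6.3 and 3.8 in the control against 3.4 and 3.6 in 35S:AtRALF1. It was the 1 member whose groups did not overlap, with the control higher, a pattern seen in 18.0% of all probe sets. Its log2 fold change was -0.11 (SE 0.13), and -0.40 with an offset of 1. All 12 of these signals were dim, and the ratio of 2 dim signals carries little information.

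**Figure D2:**
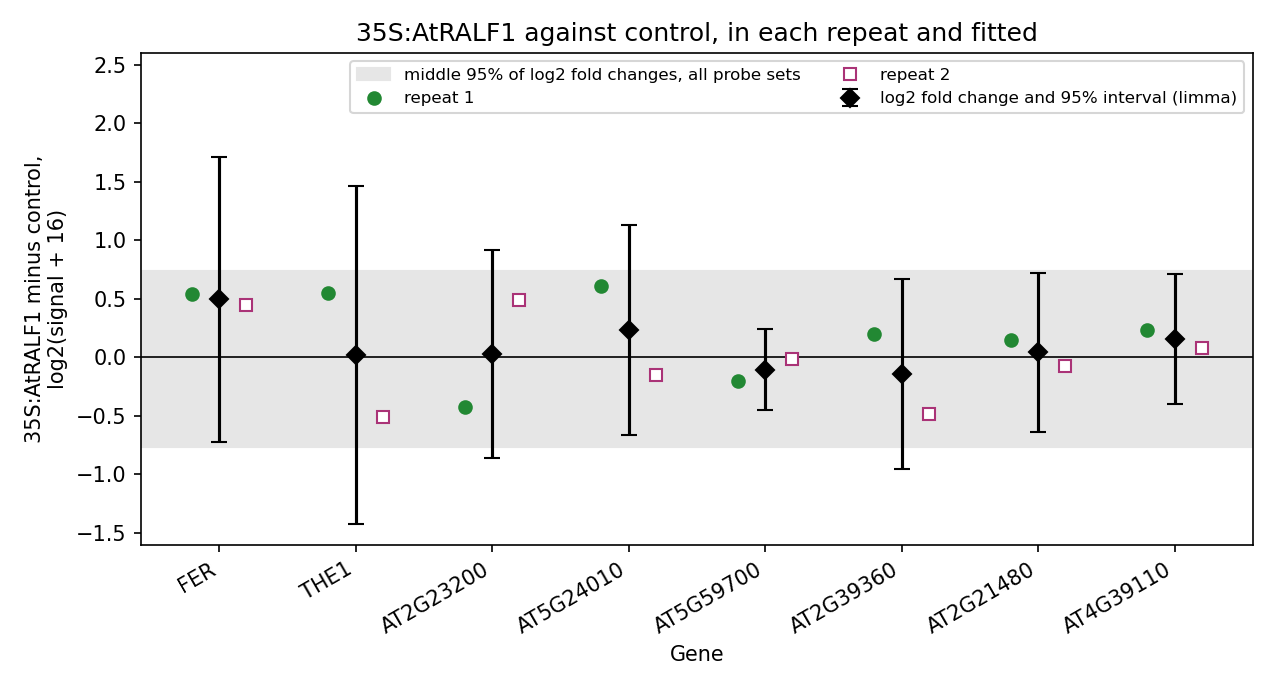
Difference between 35S:AtRALF1 and control on the log2(signal + 16) scale for each measured gene; circles show repeat 1, open squares repeat 2, diamonds the limma log2 fold change with its 95% interval, and the grey band the middle 95% of log2 fold changes over all probe sets (-0.77 to 0.74). All 8 intervals include 0, and the repeats fall on opposite sides of 0 for 5 genes.

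Counted by repeat, 2 of the 8 members were higher in 35S:AtRALF1 both times, FER and AT4G39110, beside 22.4% of all probe sets. AT5G59700 was lower both times, as were 31.5% of all probe sets. THE1, AT5G24010, AT2G39360 and AT2G21480 were higher in repeat 1 and lower in repeat 2 (22.4% of all probe sets), and AT2G23200 showed the reverse order (21.7%). No member differed by at least 2-fold in either repeat on the log2(signal + 16) scale, a size reached in 1 or both repeats by 9.54% of all probe sets, and in both repeats by 0.299% upward and 0.242% downward. The median log2 fold change of the 8 members was 0.036, with a range of -0.14 to 0.50, against a median of -0.042 over all probe sets.

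FER differed more between repeats than between genotypes. Its signal was 1.85 times higher in the first than in the second control array, and 1.96 times higher in the first than in the second 35S:AtRALF1 array. In log2 terms the second repeat stood at -0.86 and -0.95 relative to the first. For THE1 the drop was smaller in the control (-0.42) than in 35S:AtRALF1 (-1.48, or 3.15 times). Over all probe sets the median size of the difference between repeats was 0.28 in the control and 0.36 in 35S:AtRALF1. AT2G21480 and AT4G39110, both dim, were also lower in the second repeat of each group, which makes 4 of 8 members, and 33.5% of all probe sets were. For AT2G21480 the difference in the control was only -0.017, beside a median of -0.025 over all probe sets. No member was higher in the second repeat of both groups, as 26.7% of probe sets were. These differences between single arrays were not tested.

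**Figure D3:**
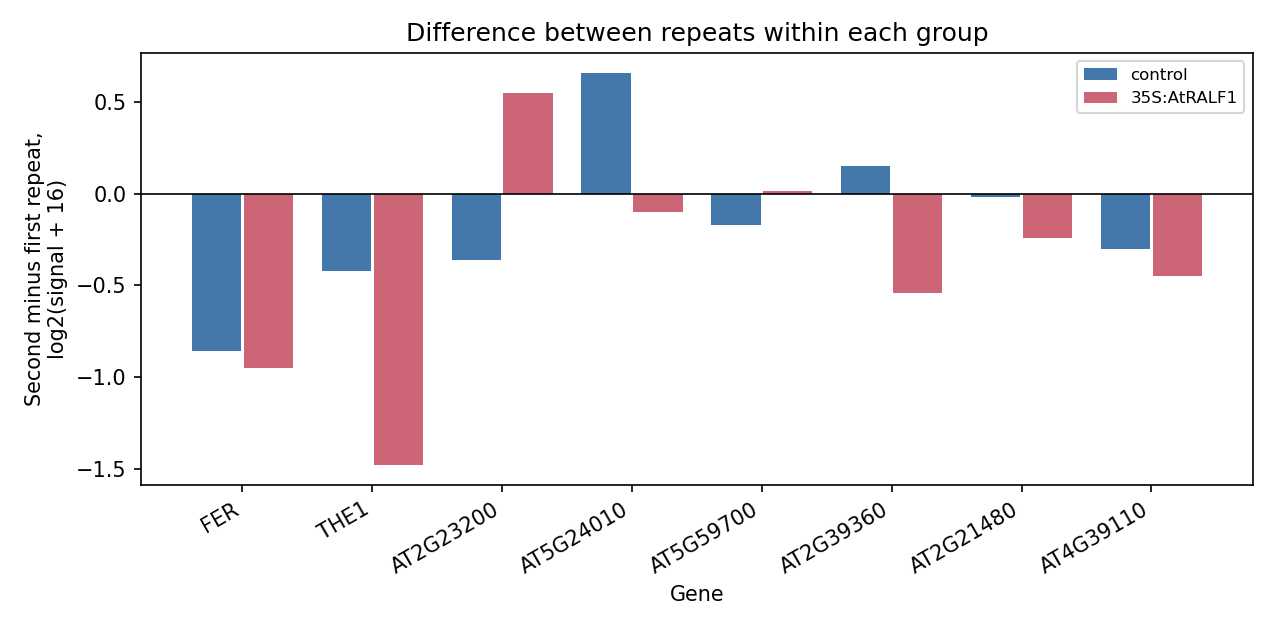
Second minus first repeat on the log2(signal + 16) scale within the control (blue) and within 35S:AtRALF1 (red) for each measured gene; each bar is the difference of 2 single arrays and has no error. FER is lower in the second repeat by nearly the same amount in both groups (-0.86 and -0.95), whereas THE1 differs (-0.42 and -1.48).

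To place the 2 named receptors among other transcripts, probe sets with a single gene and a mean signal above the 40th percentile were ranked by how closely their 4 log2 values, centred on their own mean, followed those of the receptor. The measure was the Euclidean distance over 4 arrays among 7329 probe sets, given as a description only: 190 of them lay within 0.5 of FER and 326 within 0.5 of THE1. Nearest to FER were AT1G12845 (distance 0.076), AT1G35612 (0.079) and WLIM2a (0.10), a LIM domain protein that binds actin filaments. WLIM2a had 219.2 and 113.3 in the control against 315.9 and 172.8 in 35S:AtRALF1. Nearest to THE1 were AT4G13360 (0.073), AT5G09390 (0.084) and AT4G20860 (0.11). AT4G13360 had 108.8 and 75.2 in the control against 154.7 and 47.1 in 35S:AtRALF1. Likeness in these signals is what the ranking selected.

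The family counts a further 7 genes outside the list followed here, of which 4 were measured. ANX1 and ANX2, the ANXUR receptors that hold growing pollen tubes intact, were dim in all 4 arrays, at 2.9 to 5.4 and 3 to 19.2. AT5G39020 had 3.8 and 1.4 in the control against 44.4 and 23.9 in 35S:AtRALF1. Both 35S:AtRALF1 signals lay above both control signals (13.2% of all probe sets), although only that of repeat 1 was above the dim range. Its log2 fold change of 1.40 (SE 0.28, unadjusted p = 0.00495, adjusted p = 0.987 from limma) was the largest of the 12 measured family genes and did not pass. It depends on the offset, at 3.31 with 1 and 0.55 with 64 in place of 16. AT5G39030 had 40.2 and 17.6 in the control against 13.4 and 10.2 in 35S:AtRALF1, with a log2 fold change of -0.65 (SE 0.33, adjusted p = 0.987). In the gene order of the RefSeq table (TAIR10.1) 1 protein-coding gene lies between AT5G39020 and AT5G39030. Only 1 of the 4 signals of AT5G39030 was above the dim range, and with 1 array left out its value ran from -1.02 to -0.28. HERK2, AT5G38990 and AT5G39000 were not analysed here.

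Partners of the receptors were measured only in part. Of the RALF peptide genes, which encode the ligands, 11 were measured among 34 with that symbol in RefSeq. Their median log2 fold change was 0.0026, with 6 positive and 5 negative, and 43.9% of all probe sets were positive. Of these genes limma called 0 higher and 0 lower. At an unadjusted p under 0.05 there was 1 higher, beside 2.01% of all probe sets. RALFL34, the ligand linked to THE1, had 956.2 and 774.8 in the control against 783.7 and 948.8 in 35S:AtRALF1, with a log2 fold change of 0.0026 (SE 0.24). RALFL26 had 4 and 17.7 in the control against 28.1 and 37.9 in 35S:AtRALF1, with a log2 fold change of 0.91 (SE 0.34, unadjusted p = 0.0492, adjusted p = 0.987), with only 1 of its 4 signals above the dim range. With an offset of 1 it had 1.80 (unadjusted p = 0.0771 from limma) and with 64 it had 0.38. RALFL28 had -0.48, from signals of 1 to 14.8 that were all dim, and RALFL22 had 0.34, both with an adjusted p of 0.987 from limma.

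Leucine-rich repeat extensins are wall proteins that bind RALF peptides alongside FERONIA. Of 11 listed, 8 were measured, with a median log2 fold change of -0.043. Of these 3 were positive and 5 negative, and 43.9% of all probe sets were positive. Limma called 0 of them, 0 also at an unadjusted p under 0.05 (2.01% of all probe sets higher and 2.29% lower). AT3G22800 had 46.4 and 44.7 in the control against 71.7 and 92.4 in 35S:AtRALF1. Its groups did not overlap (13.2% of all probe sets, with 35S:AtRALF1 higher), and its log2 fold change was 0.66 (SE 0.27, adjusted p = 0.987). The groups of 2 other extensins also did not overlap, with the control higher (18.0% of all probe sets). These were AT3G24480, with a log2 fold change of -0.088, and AT4G33970, dim in all 4 arrays at 2.6 to 4.7. The unadjusted p of AT3G22800 from limma was 0.0624. It was 0.0393 when the brightest 60% alone were tested and 0.0336 without a variance trend. It stayed above 0.05 with quantile normalization (0.0598), cyclic loess (0.0601) and the replicate block (0.0595). With an offset of 1 it was 0.0584 and with 64 it was 0.0624. AT4G33970 had -0.12 and AT4G18670 -0.20.

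Of 16 listed effectors and associated kinases, 3 were measured, and none passed over all probe sets. Each had the higher signals in 35S:AtRALF1 in both repeats (22.4% of all probe sets) with no overlap of the groups (13.2%). BIK1, a cytoplasmic kinase of immune signalling, had 191.3 and 244.7 in the control against 254.4 and 280.8 in 35S:AtRALF1, with a log2 fold change of 0.29 (SE 0.23). AT2G41970 had 36.9 and 43.9 in the control against 56 and 61.6 in 35S:AtRALF1, with a log2 fold change of 0.41 (SE 0.27). EFR, the immune receptor for bacterial elongation factor Tu, stood at 0.53 on the log2 scale (SE 0.20, unadjusted p = 0.0475, adjusted p = 0.987) from signals of 1.2 to 13.7, all of them dim. That value was 1.99 with an offset of 1 and 0.17 with 64, and the unadjusted p was 0.0631 with the latter and 0.0947 without a variance trend. Of 13 brassinosteroid genes only the receptor BRL1 was measured, at -0.033 and dim in all 4 arrays. The 4 co-receptor genes of the LORELEI group, 14 ROP exchange factors and 11 ROP GTPases on the lists have no probe set named for them alone in the table and were not analysed here.

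**Figure D4:**
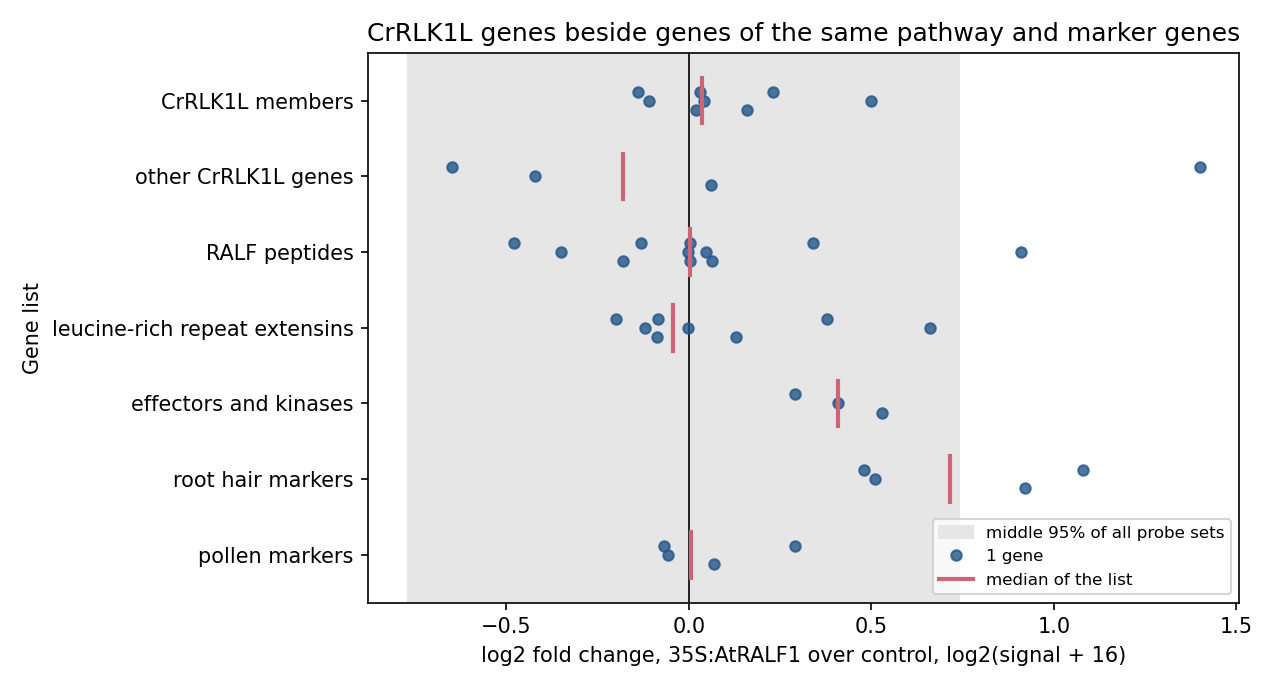
log2 fold change (35S:AtRALF1 over control, log2(signal + 16)) of each measured gene by list; points are genes, red bars the list medians and the grey band the middle 95% of all probe sets (-0.77 to 0.74). The 8 followed CrRLK1L genes lie within the band around a median of 0.036, and AT5G39020 among the other CrRLK1L genes lies outside it at 1.40. RALFL26 (0.91) and the root hair markers AT1G30870 (1.08) and AT4G26010 (0.92) also lie outside it.

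Markers of root hair cells, a cell type in which FERONIA and ERULUS act, were not called in the fit over all probe sets (limma, adjusted p = 0.987 each). Of 7 listed, 4 were measured, and all 4 had groups that did not overlap, with the higher signals in 35S:AtRALF1, as 13.2% of all probe sets had. Their median log2 fold change was 0.72. Like the other lists, this one was chosen with earlier results of these data known, so its counts and median describe and do not test. Their summed signal was 504.5 and 576.2 in the control against 934.3 and 1058.4 in 35S:AtRALF1, and the lowest marker signal was 62.2. Of these markers AT1G30870 (1.08) and AT4G26010 (0.92) had the smallest p, followed by EXPA18 (0.51), an expansin of root hairs. The part of root hair cells in the FER and AT5G39020 values was not tested. PYK10 had a log2 fold change of -0.44, and the leaf genes RCA and LHCB4.1 had -0.11 and -0.049. Pollen markers had a median of 0.0059, with MGH3 at 0.29, AT5G07430 at -0.056 and ACT12 at -0.068, and of 3 listed seed storage genes none was measured.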

How the data were processed

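Per the labels, biotin-labelled RNA was hybridized to Affymetrix arrays. The deposited signal intensities are linear, 1 per probe set, and were scaled by the authors; the software that summarized them is not stated in those sources. Of 22810 probe sets, 64 controls were left out. Values were floored at 1 and expressed as log2(signal + 16). Both groups were compared across 22746 probe sets with limma 3.58.1 in R 4.3.3 (eBayes with its intensity trend, df 2 residual and 2.66 prior, two-sided tests adjusted by Benjamini-Hochberg, with 0.05 as threshold). Precision is limited by the number of arrays, and 2 against 2 cannot give an exact permutation p under 0.333.

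The probe table, updated through RefSeq (TAIR10.1, names only), gave 1 gene for 13513 probe sets (13508 matched a locus), several for 503 and none for 8730. Members and lists were chosen with earlier results of these data known. All measured members are named, and from each list up to 3 genes with the smallest p. RALFL34, ANX1, TUA1, AT3G24480, HERK2, AT5G38990 and AT5G39000 were named outside that rule. Alternatives were cyclic loess or quantile normalization, an offset of 1 or 64, a filter keeping the brightest 60% of probe sets, no variance trend, the repeat as a block, each array left out, and 1.5-fold or 3-fold for 2-fold.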

Additional observations from a re-analysis of the deposited data

How the results depend on the processing

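No member was called under any alternative. Over all probe sets limma called 0 (980 at an unadjusted p under 0.05). It called 1, which the table does not name, when the brightest 60% alone were tested, and the same 1 with the replicate block. The labels do not say that repeat numbers pair arrays, and 2 pairs are too few to settle it (deviations from group means correlated at 0.39 between same-numbered arrays). With the replicate block 1 member, FER, had an unadjusted p under 0.05 (0.0409, adjusted p = 0.681 from limma), beside 1648 of all probe sets. Members lower in both repeats numbered 0 with quantile normalization and 0 with cyclic loess, in place of 1, those higher in both repeats 3 with either, in place of 2, and 1 member changed by 1.5-fold in a repeat. Of 85 member values 8 changed sign, all with an array left out. With 1 array left out, values ranged from -0.24 to 0.30 for AT2G23200, -0.10 to 0.56 for AT5G24010, -0.41 to 0.13 for AT2G39360, -0.079 to 0.16 for AT2G21480, -0.070 to 0.38 for AT4G39110, -0.72 to 0.76 for THE1 and, with no change of sign, 0.023 to 0.97 for FER and -0.19 to -0.022 for AT5G59700. Of 231 values of 22 other genes 11 changed sign: with 1 array left out the ranges were -0.52 to 0.13 for AT4G18670, -0.27 to 0.21 for BRL1, -0.37 to 0.24 for ACT12 and -0.32 to 0.22 for LHCB4.1. With quantile normalization BRL1 had 0.046, ACT12 0.015 and LHCB4.1 0.030, and with cyclic loess BRL1 had 0.026 and LHCB4.1 0.039. The cause was not tested. The alternatives for these other genes were chosen after seeing the data. Where leaving out an array left a group with a single one, its spread was taken from the other group.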
